A study of Homo sapiens with 4 samples.

Results

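ST3GAL5, which encodes the sialyltransferase that makes the ganglioside GM3, and 9 further genes of ceramide and ganglioside synthesis were examined in TE-1 cells after FOXM1 silencing. The TE-1 line derives from an esophageal squamous cell carcinoma (ESCC). FOXM1 is a transcription factor of the forkhead family and a known activator of cell division genes. The 10 genes (ST3GAL5, UGCG, B4GALT5, B4GALT6, ST8SIA1, B4GALNT1, DEGS1, DEGS2, SPTLC2 and CERS2) were taken by symbol. The list was drawn up around ST3GAL5 with the difference between silenced and control cells on these same arrays known. ST3GAL5 and DEGS2 also pass the study's own criterion of 1.5-fold on that difference. Therefore every difference given for the 10 genes is a description, given without a p of its own. Their probe sets were part of the fit over all probe sets, in which none passed. All 10 were measured by a probe set of their own, among 14232 genes measured in this way. A probe set is the group of array probes that reports a gene, and for a gene with several of them the one with the highest mean was used.

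Cells were transfected by lipofection with siRNA against FOXM1 (TE-1-siFOXM1, 2 replicates) or with a scrambled siRNA (TE-1-SCR, 2 replicates). Total RNA was measured on 4 Affymetrix exon arrays. Transfection was repeated after a day and cells were collected a day later. Both groups were transfected cells of the same line and differed in the siRNA, and no untransfected cells were analysed here. No source used here says whether the replicates were separate cultures, so standard errors and p-values reflect how far these arrays varied, perhaps for technical reasons alone. The deposited values are log2 expression after robust multi-array average (RMA), and a difference is the TE-1-siFOXM1 mean less that of TE-1-SCR on this scale. Array medians were between 7.54 and 7.63, and pairs of arrays correlated across probe sets at 0.984 to 0.992. FOXM1 itself had log2 values of 8.28 and 8.06 in TE-1-siFOXM1 and of 10.55 and 9.75 in TE-1-SCR cells, a difference of -1.98 (standard error 0.30). Of 10 squamous epithelial markers 5 had a probe set of their own, and all 5 (SFN, CDH1, PKP1, DSG3 and KRT14) lay above the median of all probe sets. TP63, KRT5, KRT17, KRT6A and SOX2 had none and were not examined. Of 10 markers of other cell types 9 were measured and 7 lay below that median, among them the leukocyte gene PTPRC (3.58), while CD68 (11.18) and COL1A1 (7.78) lay above it. The mean over the squamous markers was 9.65 to 9.68 in TE-1-siFOXM1 and 9.56 in both TE-1-SCR arrays, and over the other markers 6.17 to 6.20 and 6.08 to 6.15. The part of these small differences in the results was not tested.

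Glycosphingolipids are built on ceramide in a chain of enzyme steps. Serine palmitoyltransferase starts the sphingoid base, ceramide synthases attach the fatty acid, and desaturases complete ceramide in the endoplasmic reticulum. In the Golgi apparatus a glucose and then a galactose are added to give lactosylceramide, to which ST3GAL5 attaches sialic acid, and the product, GM3, is the precursor of most complex gangliosides. In stratified squamous epithelia ceramides and glucosylceramides are known for their place in the permeability barrier, and gangliosides of the cell surface are known to modulate growth factor receptors.

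The sequences before the transcription starts of the genes with the largest differences are shown because the silenced factor binds DNA. RefSeq promoter windows (GRCh38.p14) matched 7 of the 10 genes, with 12 windows in all, while CERS2, B4GALNT1 and B4GALT6 had no entry in the table used. Each printed sequence holds the 250 bases before an annotated start. ST3GAL5 had 5 such windows, some of them overlapping, at an outer and an inner cluster of starts on the minus strand of chromosome 2. The outer window lies at chr2:85889035-85889284 and the inner one at chr2:85854176-85854425, and the DEGS2 window lies on the minus strand at chr14:100159646-100159895. Capitals mark matches, on either strand, to the GC box, the CCAAT box and a forkhead motif.
ST3GAL5 outer start: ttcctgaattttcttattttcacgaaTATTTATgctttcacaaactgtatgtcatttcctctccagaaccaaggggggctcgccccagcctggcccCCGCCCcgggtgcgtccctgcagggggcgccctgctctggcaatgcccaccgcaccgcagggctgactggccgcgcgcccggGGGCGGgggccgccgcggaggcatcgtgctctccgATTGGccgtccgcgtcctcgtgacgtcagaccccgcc
ST3GAL5 inner start: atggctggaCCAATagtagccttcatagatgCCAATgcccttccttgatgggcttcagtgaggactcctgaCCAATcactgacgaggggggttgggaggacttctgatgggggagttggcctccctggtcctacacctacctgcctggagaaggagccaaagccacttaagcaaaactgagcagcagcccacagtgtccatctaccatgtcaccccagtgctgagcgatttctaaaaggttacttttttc
DEGS2: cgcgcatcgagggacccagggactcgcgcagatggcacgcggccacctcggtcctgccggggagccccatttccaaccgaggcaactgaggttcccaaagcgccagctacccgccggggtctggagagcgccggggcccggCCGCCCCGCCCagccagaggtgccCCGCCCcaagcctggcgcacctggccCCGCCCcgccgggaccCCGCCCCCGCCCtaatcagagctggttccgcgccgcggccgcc

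The forkhead motif was searched as ACAAACA or ACAAATA, as ATAAACA or ATAAATA, as GCAAACA or GCAAATA, and as GTAAACA or GTAAATA, on both strands. It matched in 1 of the 12 windows, the outer ST3GAL5 window shown, where TATTTAT lies 224 to 218 bases before the start. The same letters occurred in 22.0% of all 35116 windows of this length. The cell cycle element CHR (TTTGAA, both strands), through which FOXM1 reaches many mitotic genes together with the MuvB complex, was in none of the 12 windows and in 13.3% of all windows. GC boxes, searched as GGGCGG on both strands, were in 9 of the 12 windows and in at least 1 window of all 7 genes, against 42.6% of all windows. The DEGS2 window held 6, of which the outermost pair share a letter, and no match in the 12 windows overlapped a match of another motif. CCAAT boxes, searched by those letters on both strands, were in 6 of the 12 windows, from 3 genes (ST3GAL5, SPTLC2 and ST8SIA1), and in 32.0% of all windows. Overlapping ST3GAL5 windows repeat the same CCAAT boxes and some of the same GC boxes, so these counts of windows are not counts of separate sites. The share of G and C was between 52.0% (an inner ST3GAL5 window) and 80.4% (DEGS1), against a median of 58.0% over all windows. These matches describe letters and were not tested as binding sites.

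ST3GAL5 expression was 1.60-fold lower in TE-1-siFOXM1 than in TE-1-SCR cells. Its log2 expression was 6.90 in both TE-1-siFOXM1 replicates (mean 6.90 ± 0.00064, SD, n = 2). In TE-1-SCR it was 7.81 in replicate 1 and 7.33 in replicate 2 (mean 7.57 ± 0.34, SD, n = 2). Both silenced arrays therefore lay below both control arrays, by 0.43 from the nearer one, and the spread was within the control group. The difference of -0.67 (standard error 0.20) left 62.6% of the TE-1-SCR level, and 37 of the 14232 genes had a lower value. Within the replicates numbered 1 the difference was -0.92, and within those numbered 2 it was -0.43. The controls of FOXM1 likewise had the higher value in replicate 1, but so did the median of all probe sets (7.63 against 7.54 in TE-1-SCR). Whether the ST3GAL5 values follow those of FOXM1 was not tested. The ST3GAL5 probe set had a mean of 7.24, below the median of all probe sets (7.58), and no other row carried this symbol. In bulk RNA, less RNA per cell and fewer cells with the RNA cannot be told apart.

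**Figure D1:**
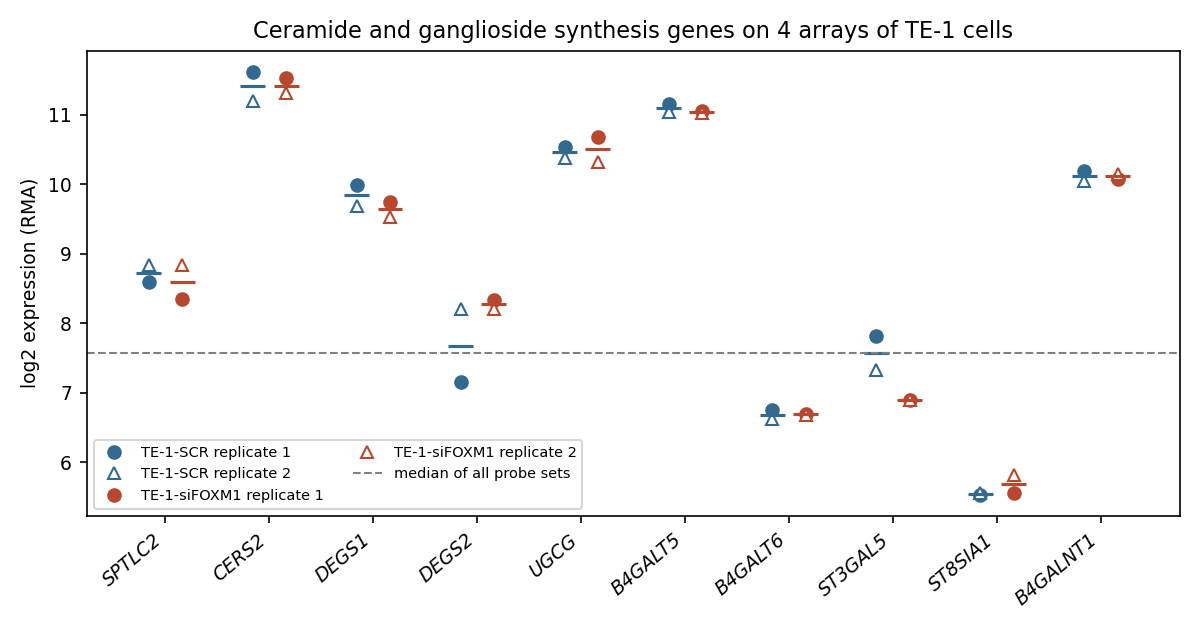
Log2 expression (RMA, vertical axis) of the 10 genes in pathway order on each of the 4 arrays, with circles for replicate 1, triangles for replicate 2, short lines for group means and a dashed line at the median of all probe sets (7.58). The ST3GAL5 values of TE-1-siFOXM1 (6.90 on both arrays) lie below both TE-1-SCR values (7.81 and 7.33), whereas for DEGS2 the single value of 7.16 in TE-1-SCR replicate 1 lies apart from the others.

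DEGS2 had the largest difference in the other direction. It encodes a desaturase that is also a hydroxylase and makes the phytoceramides found in epithelia such as epidermis. Its log2 values were 8.33 and 8.21 in TE-1-siFOXM1 (8.27 ± 0.08, SD, n = 2) and 7.16 and 8.20 in TE-1-SCR cells (7.68 ± 0.74, SD, n = 2). The array that stood apart was TE-1-SCR replicate 1, since TE-1-SCR replicate 2 came within 0.01 of the nearer silenced array. The difference of 0.59 (standard error 0.36), or 1.51-fold, was 1.18 within the replicates numbered 1 and 0.01 within those numbered 2. It exceeded 1.5-fold, which is 0.58 on the log2 scale, by little, and 75 genes had a higher value. Without TE-1-SCR replicate 1 the difference was 0.07, and without TE-1-SCR replicate 2 it was 1.12.

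The other genes of ceramide synthesis among the 10 showed small differences. SPTLC2, the catalytic partner of SPTLC1 in serine palmitoyltransferase, had log2 values of 8.35 and 8.84 in TE-1-siFOXM1 and of 8.60 and 8.84 in TE-1-SCR cells, a difference of -0.12 (standard error 0.22). Its replicates differed by 0.50 within TE-1-siFOXM1, more than the groups did, and it was the gene with the widest gap between silenced replicates. CERS2, a ceramide synthase for very long acyl chains, had values of 11.52 and 11.31 against 11.62 and 11.20, a difference of 0.01 (standard error 0.20). The control arrays enclosed the silenced ones. DEGS1, the desaturase that forms most ceramide from dihydroceramide, had values of 9.74 and 9.53 against 9.99 and 9.69, a difference of -0.20 (standard error 0.18). Its groups overlapped, although the difference was below 0 within the replicates numbered 1 (-0.25) and numbered 2 (-0.16). With 1 array left out the difference of DEGS1 ranged from -0.35 to -0.05, that of SPTLC2 from -0.37 to 0.12 and that of CERS2 from -0.20 to 0.21.

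The enzymes that provide lactosylceramide, the substrate of ST3GAL5, had differences between -0.06 and 0.05. UGCG, which transfers glucose to ceramide, had log2 values of 10.68 and 10.32 in TE-1-siFOXM1 and of 10.54 and 10.38 in TE-1-SCR cells, a difference of 0.05 (standard error 0.18). B4GALT5, the main lactosylceramide synthase, had values of 11.06 and 11.02 against 11.16 and 11.04, a difference of -0.06 (standard error 0.14). B4GALT6, which carries out the same step, had values of 6.70 and 6.68 against 6.75 and 6.62, a difference of 0.00 (standard error 0.14). All groups overlapped here, and for UGCG and B4GALT6 the sign differed between the replicate numbers.

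The enzymes that use GM3 or its precursor had differences of 0.13 and 0.00. ST8SIA1, which adds a second sialic acid to GM3, had log2 values of 5.56 and 5.81 in TE-1-siFOXM1 and of 5.54 and 5.57 in TE-1-SCR cells, a difference of 0.13 (standard error 0.16). The mean of this probe set (5.62) lay below the median of all probe sets (7.58), and of the silenced arrays only replicate 2 lay above the controls. B4GALNT1, which adds N-acetylgalactosamine and so leads to the complex gangliosides, had values of 10.07 and 10.15 against 10.18 and 10.05, a difference of 0.00 (standard error 0.14). Its other row, shared with SLC26A10P, had a difference of -0.02. The groups overlapped for both genes.

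**Figure D2:**
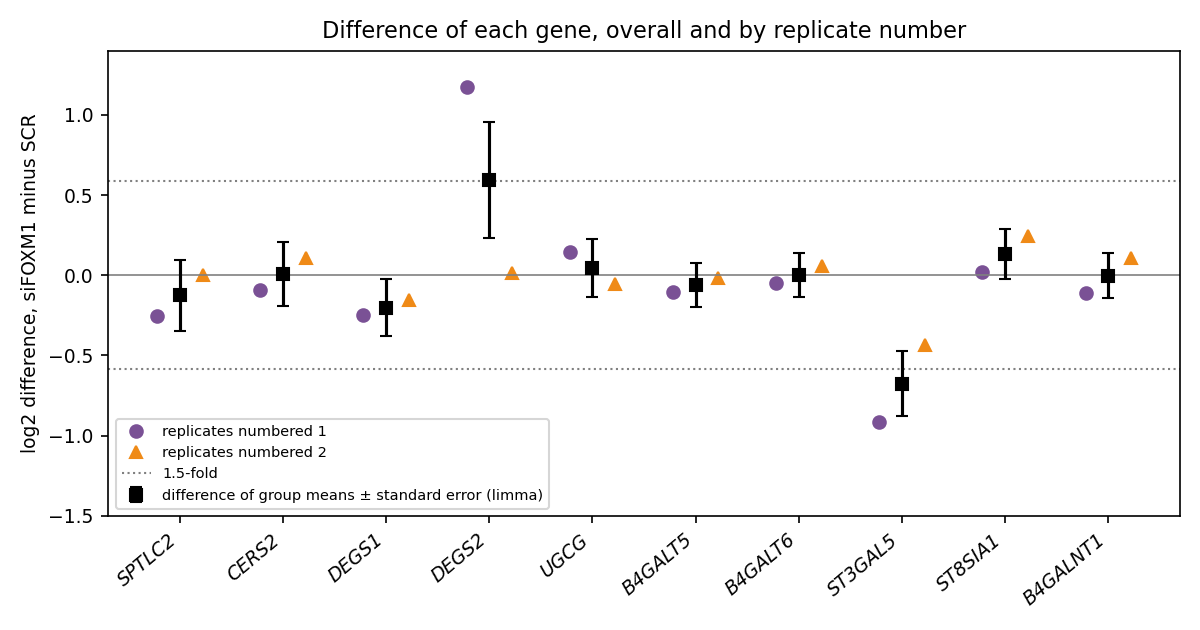
Log2 difference (vertical axis, TE-1-siFOXM1 minus TE-1-SCR) of each gene, with squares for the difference of the group means, bars for its standard error from limma, and circles and triangles for the replicates numbered 1 and 2. ST3GAL5 is below 0 in both (-0.92 and -0.43), and DEGS2 is at 1.18 in one and at 0.01 in the other.

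At least 1.5-fold lower was 1 of the 10 genes, ST3GAL5, and at least 1.5-fold higher was 1, DEGS2. Over all genes the shares were 0.45% lower and 0.562% higher, but as the 10 genes were listed with these differences known nothing is read from this. Both silenced arrays lay below both control arrays for ST3GAL5 (13.8% of all genes) and above them for DEGS2 (13.5% of all genes). For the 8 others the groups overlapped and the differences lay between -0.20 and 0.13. The median of the 10 differences was 0.00, as it was over all genes (0.00). Among the 10, ST3GAL5 was the 1 gene with a difference larger than the replicate gaps of both groups, as were 2467 of all 14232 genes. The median gap of the 10 was 0.16 between the TE-1-siFOXM1 and 0.20 between the TE-1-SCR replicates, close to that of all genes (0.17 and 0.19). The sign was the same in both replicate numbers for 5 of the 10 genes and for 8108 of all 14232 genes. Across all 22011 probe sets, limma called 0 at an adjusted p of 0.05, or 0%, and 680 had an unadjusted p below 0.05. With an intensity trend and robust estimation, limma also called 0, with 661 at an unadjusted p below 0.05. Each count is a smaller share of the probe sets than the 0.05 that would be expected if no gene differed. The 95% half-width of a difference, from limma, was between 0.36 and 0.94 for the 10 genes.

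Single arrays decided how far the 2 leading genes stood out. Without either silenced array the ST3GAL5 difference was -0.67 or -0.68. Without TE-1-SCR replicate 1 it was -0.44, which is less than 1.5-fold, and without TE-1-SCR replicate 2 it was -0.91. The direction held in all 4 cases. DEGS2 was less than 1.5-fold apart without TE-1-SCR replicate 1 (0.07) or without TE-1-siFOXM1 replicate 1 (0.53), and none of the 8 others reached 1.5-fold when any array was left out.

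**Figure D3:**
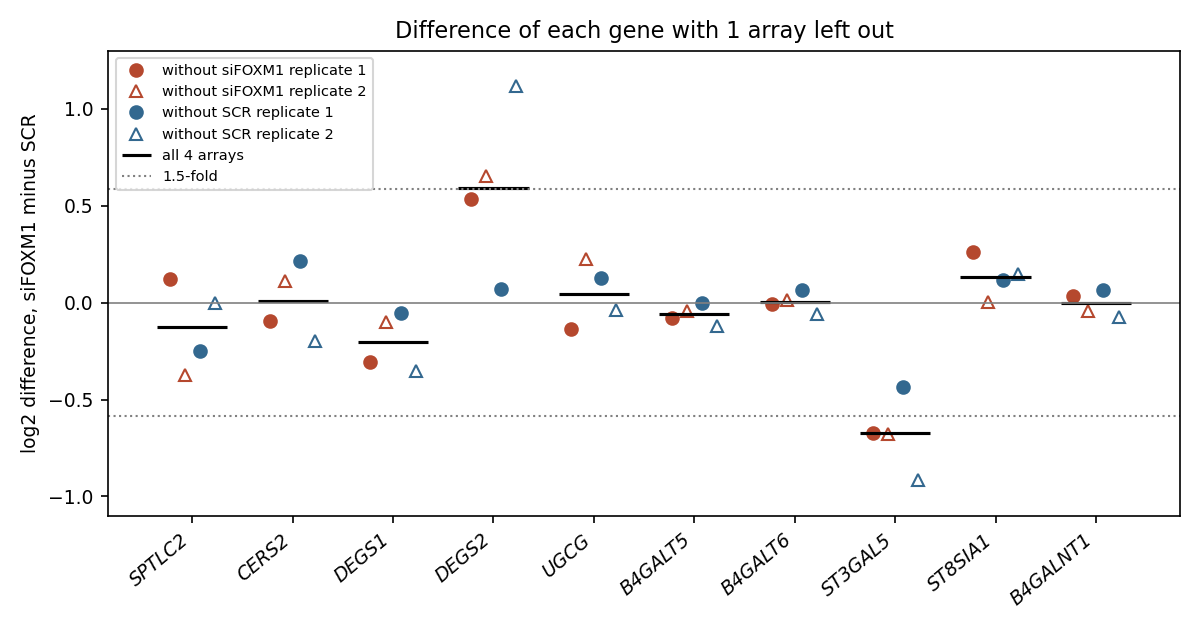
Log2 difference (vertical axis, TE-1-siFOXM1 minus TE-1-SCR) of each gene with all 4 arrays (black lines) and with 1 array left out (points), with dotted lines at 1.5-fold. ST3GAL5 ranges from -0.91 to -0.44, DEGS2 from 0.07 to 1.12.

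The wider pathway was described on 84 further genes of sphingolipid metabolism and sialylation, of which 71 were measured under a symbol of their own. None of the 71 was 1.5-fold apart. None passed limma, but no probe set did, that of FOXM1 included, so this says nothing about the 71. Their median difference was 0.00, and their range was -0.37 to 0.48. Both silenced arrays were above both control arrays for 13 of them (18.3% of 71) and below for 8 (11.3%), beside 13.5% and 13.8% over all genes.

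Within ceramide synthesis 11 of 13 listed genes were measured, with a median of -0.01. ORMDL2, one of the ORMDL proteins that restrain serine palmitoyltransferase, was highest with a difference of 0.25 (standard error 0.16), and ORMDL1 was lowest with -0.24 (standard error 0.26). ORMDL2 had no overlap between the groups (11.42 and 11.22 against 11.15 and 10.98), while ORMDL1 overlapped and had 0.03 without TE-1-SCR replicate 1. Of the genes that make sphingomyelin, galactosylceramide or sulfatide from ceramide, carry ceramide or break sphingomyelin down, 9 of 10 were measured, with a median of 0.01. SMPD3, a neutral sphingomyelinase, was highest with 0.19 (standard error 0.15). The ceramide transfer protein CERT1, which carries ceramide to the Golgi apparatus, was lowest with -0.20 (standard error 0.15). Among 9 of 11 measured genes of ceramide breakdown and sphingosine phosphate, the median was 0.06 and SGPP1, a sphingosine phosphate phosphatase, was highest with 0.18 (standard error 0.17). CERK, the ceramide kinase, was lowest with -0.37 (standard error 0.24). Its values were 8.88 and 8.45 in TE-1-siFOXM1 and 9.25 and 8.81 in TE-1-SCR cells, so that the groups overlapped although the difference was -0.38 and -0.37 within the 2 replicate numbers.

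The 9 further ganglioside genes were all measured and had differences between -0.07 (ST6GALNAC3) and 0.14 (ST8SIA3), with a median of 0.04. Only 4 of the 9 had a mean at or above the median of all probe sets (7.58). The means of ST6GALNAC3 (5.09) and ST8SIA3 (4.79) lay far below it. ST6GALNAC3 is a sialyltransferase of the alpha-series gangliosides, and ST8SIA3 is one that acts on GM3 and on glycoproteins. ST3GAL1 and ST3GAL2, which attach sialic acid to the complex gangliosides and to glycoproteins, had differences of 0.01 and -0.03. In the globo and lacto series, which branch from the same lactosylceramide, 5 of 7 genes were measured with a median of 0.00. The fucosyltransferase FUT1 was highest with 0.36 (standard error 0.19) and did not overlap (7.90 and 8.20 against 7.53 and 7.85), and B3GALNT1, the globoside synthase, was lowest with -0.15 (standard error 0.15). Of 14 genes of glycosphingolipid degradation 10 were measured, between the sialidases NEU1 (-0.19, standard error 0.21) and NEU3 (0.12, standard error 0.17), with a median of -0.02.

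Among sialyltransferases that act mainly on glycoproteins, 9 of 10 were measured with a median of -0.07. ST8SIA2, a polysialyltransferase, was the highest of the 71 genes with 0.48 (standard error 0.25). Its values were 6.52 and 6.96 in TE-1-siFOXM1 and 6.01 and 6.50 in TE-1-SCR cells, all below the median of all probe sets and without overlap. Its second row had a difference of 0.00. ST6GALNAC2, which sialylates mucin-type glycans, was lowest with -0.20 (standard error 0.35), a value that was 0.24 without TE-1-siFOXM1 replicate 1 and -0.64 without TE-1-siFOXM1 replicate 2. The genes that supply activated sialic acid, of which 4 of 5 were measured, lay between GNE, the first enzyme of sialic acid synthesis (-0.15, standard error 0.17), and CMAS, which activates it (0.03, standard error 0.16), with a median of -0.05. The 5 other beta-1,4-galactosyltransferases lay between B4GALT7 (-0.19, standard error 0.23) and B4GALT4 (0.08, standard error 0.19). The ST3GAL5 value (-0.67) lay outside the range of these 71 genes with all 4 arrays, which is a description. Without TE-1-SCR replicate 1 it did not, as ST6GALNAC2 was then at -0.45 and ST3GAL5 at -0.44.

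These extremes moved with single arrays. Of the 18 genes that were highest or lowest in their list, 8 had the opposite sign when some array was left out (ORMDL1, ST6GALNAC3, NEU1, NEU3, ST6GALNAC2, CMAS, B4GALT4 and B4GALT7). NEU1 was at 0.06 and B4GALT7 at 0.05 without TE-1-SCR replicate 1, and NEU3 was at -0.01 without TE-1-SCR replicate 2. CMAS and B4GALT4 were at -0.09 and -0.07 without TE-1-siFOXM1 replicate 1, and at -0.02 and -0.06 without TE-1-SCR replicate 2. ST6GALNAC3 was at 0.03 without TE-1-siFOXM1 replicate 1. The median over all genes moved as well, to 0.07 without TE-1-SCR replicate 1 and to -0.07 without TE-1-SCR replicate 2. Without TE-1-siFOXM1 replicate 1 it was -0.04, and without TE-1-siFOXM1 replicate 2 it was 0.04. Several of the turned values are no further from 0 than this median, and its part in the turns was not tested. The 3 genes furthest from 0 kept their sign but not their size. CERK ranged from -0.59 to -0.15, FUT1 from 0.20 to 0.53 and ST8SIA2 from 0.24 to 0.73, in each case nearer to 0 without TE-1-siFOXM1 replicate 2 or TE-1-SCR replicate 1.

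**Figure D4:**
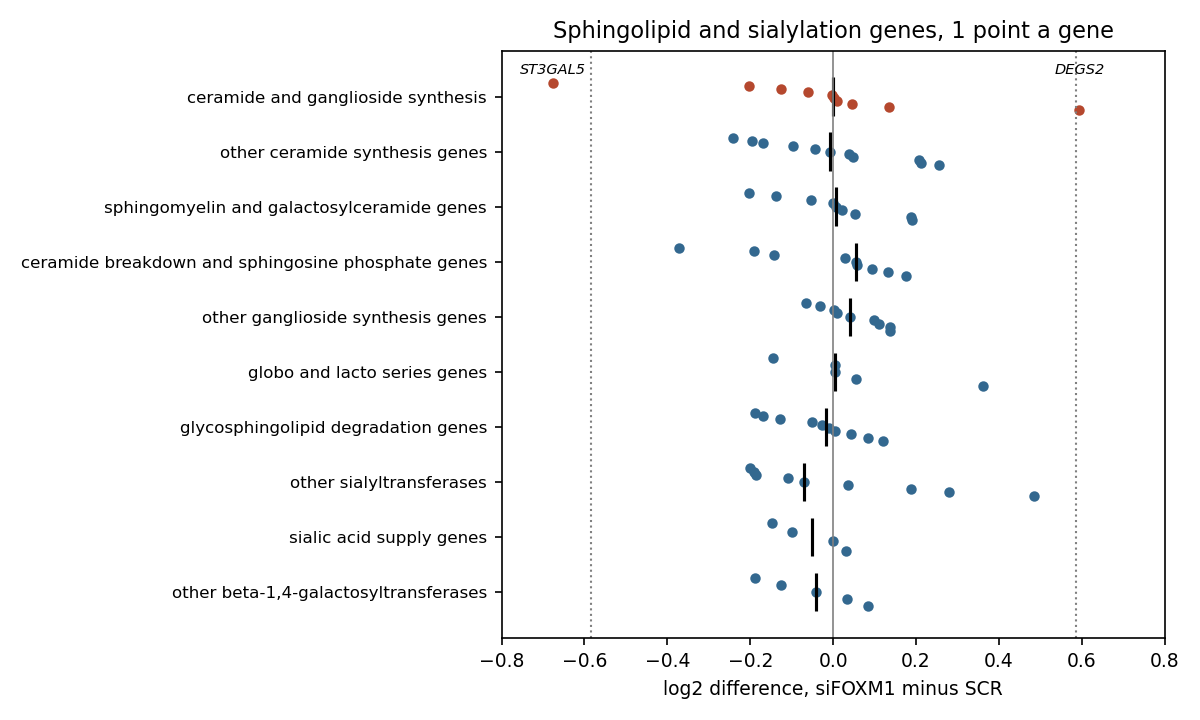
Log2 differences (horizontal axis, TE-1-siFOXM1 minus TE-1-SCR) of the 10 genes and of the 71 measured genes of 9 related lists, 1 point a gene, with a vertical line at each list's median and dotted lines at 1.5-fold. ST3GAL5 (-0.67) and DEGS2 (0.59) are the 2 points beyond the dotted lines, and the 71 others lie between -0.37 and 0.48.

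Genes with a similar course over the 4 arrays were sought by the root mean square distance of log2 values centred on each gene's own mean, using genes whose mean was not below the median of all probe sets. Closest to ST3GAL5 were SLC25A4 (distance 0.06), an ADP/ATP carrier of mitochondria, the stress granule protein gene G3BP1 (0.07), the ribosomal protein gene RPL22 (0.07), the glutamate transporter gene SLC1A3 (0.08) and TMEM263 (0.09). SLC25A4 had values of 8.36 and 8.21 in TE-1-siFOXM1 and of 9.14 and 8.64 in TE-1-SCR cells, a difference of -0.60. All 5 were highest in TE-1-SCR replicate 1, next highest in TE-1-SCR replicate 2 and lower in both silenced arrays. Without TE-1-SCR replicate 1 their differences were between -0.41 (TMEM263) and -0.32 (SLC1A3), that of SLC25A4 being -0.35, and without TE-1-SCR replicate 2 SLC25A4 was at -0.85. Closest to DEGS2 were BLOC1S6 (0.15), which encodes a subunit of a complex for lysosome-related organelles, XAGE3 (0.15), LINC02076 (0.16), FAM83E (0.17) and ARHGAP21 (0.19). XAGE3 had values of 8.20 and 8.34 against 7.04 and 7.91, and the low array was again TE-1-SCR replicate 1 for all 5. Without that array their differences were between 0.14 (LINC02076) and 0.36 (XAGE3). These genes were chosen for their likeness on these same arrays, so the highest or lowest array that they share follows from that choice. Over 4 arrays such distances describe these arrays alone.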

How the data were processed

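Total RNA of TE-1 cells was measured on 4 Affymetrix exon arrays, 2 in each of 2 groups taken from the sample labels. The authors processed the arrays with RMA in Affymetrix Expression Console and deposited log2 values of 22011 probe sets, so background and between-array scale were set by the authors. Tools and the build, hg18, come from the submitters' processing notes, without versions. The sources used here do not give the set of arrays that RMA took together. The platform annotation gave 14432 probe sets 1 gene symbol, 2408 several and 5171 none, and genes were read from probe sets with 1 symbol. Every probe set was fitted with limma (version 3.58.1, R 4.3.3; group only, 4.87 degrees of freedom, Benjamini-Hochberg adjustment), and a fold of 1.5, the study's criterion, was applied to the difference of means. The fit was tested on simulated data. For arrays, the number of replicates limits precision. The 10 genes, the related lists and the rule for named genes (FOXM1, all 10 on every row, the extremes of each related list, the 5 nearest patterns of ST3GAL5 and DEGS2, and any related gene 1.5-fold apart) were chosen with earlier results of these data known. ST3GAL1, ST3GAL2 and the rows with shared symbols were named after their values were seen. Promoter sequences are RefSeq's (GRCh38.p14), whose coordinates were not combined with hg18. Alternatives were centring, quantile normalization, averaging a gene's rows, a filter on dim rows, linear means, a 2-fold criterion, a requirement of no overlap, an intensity trend, a replicate block and leaving out each array. Genes of the lists with no row of their own were not analysed here.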

Additional observations from a re-analysis of the deposited data

How the results depend on the processing

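The count of the 10 genes at least 1.5-fold higher (1, DEGS2) was 0 after quantile normalization (DEGS2 0.57), with linear means (0.50) and with a 2-fold criterion, and ranged from 0 to 1 with 1 array left out (0 without siFOXM1 replicate 1 or SCR replicate 1). The count of those at least 1.5-fold lower (1, ST3GAL5) was 0 with a 2-fold criterion and 0 among rows at or above the median level, where ST3GAL5 is not included by construction, and ranged from 0 to 1 with 1 array left out. It was 0 without SCR replicate 1. The ST3GAL5 difference ranged from -0.91 to -0.44 with 1 array left out and was -0.66 after quantile normalization and -0.69 with linear means. The median of the 10 genes ranged from -0.07 to 0.07 with 1 array left out, as did the median over all genes. Among the 71 related genes, CERK (-0.59), ST8SIA2 (0.70 and 0.73) and ST6GALNAC2 (-0.64) passed 1.5-fold when certain arrays were left out, while with others left out CERK was as near to 0 as -0.15 and ST8SIA2 as 0.24. For CERK and ST8SIA2 the array left out was siFOXM1 replicate 1 or SCR replicate 2, for ST6GALNAC2 it was siFOXM1 replicate 2. Limma called 0 probe sets under each of the 9 alternatives run, which with so few arrays says nothing about stability (with an array left out, the lone array is assumed to vary like the other group), with 183 (of 11006 bright rows) to 1576 at an unadjusted p below 0.05, the latter with the replicate block. With 2 pairs the samples share only a number, the deviations of same-numbered arrays correlated at 0.34, and the replicate block left the ST3GAL5 difference at -0.67 with a standard error of 0.16. Signal over background is not known for these values. The cause of these changes was not tested.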

Other observations

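Rows that carry the symbol of one of the 10 genes or of a related gene together with another symbol were left out of the comparisons. There were 16 of them, with differences from -0.33 to 0.45 and none 1.5-fold apart. The highest was a row of HEXA, a subunit of the lysosomal enzyme that degrades the ganglioside GM2, shared with HEXA-AS1. Its log2 values were 5.19 and 4.98 in TE-1-siFOXM1 and 4.62 and 4.65 in TE-1-SCR cells, without overlap and far below the median of all probe sets, whereas the row of HEXA alone had a difference of -0.03. The lowest (-0.33) was a row shared by SMPD4, POTE family genes and others.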
